A study of Mus musculus with 8 samples.

Results

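The distribution of 5-hydroxymethylcytosine (5hmC, an oxidised form of 5-methylcytosine) over the autosomes was compared between hippocampus and left ventricle of C57BL/6 mice, at the scale of 1 Mb. The 8 libraries were made from DNA enriched with an antibody to 5hmC and sequenced (DIP-seq), and each is a pool. DNA of 5 mice per treatment group was combined into 2 pools, and whether those pools share mice is not said. Hippocampus and ventricle each had 2 pools from sham-irradiated mice (0 Gy) and 2 pools from mice given 1 Gy of protons, all taken 20 weeks after exposure, and the tissues were compared averaged over dose. The authors deposited raw read counts over 1 merged list of enriched regions per tissue, 21990 in hippocampus and 11664 in ventricle, on build mm9.

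Each region was placed by its midpoint into a fixed 1 Mb bin. Only the 19 autosomes were used, and regions whose mean CPM (counts scaled to a library total of 1000000) was over 20 times that of the tissue's median region were left out, 10 in hippocampus and 12 in ventricle. The largest region kept stood at 18.9 times the median in hippocampus and 19.4 in ventricle, and the smallest left out at 22.0 and 21.0. Of 2371 autosomal bins with any retained region, the 2070 bins with 3 or more regions in either tissue were kept. They held 21279 hippocampal and 11207 ventricular regions. At the edge of that rule, 188 kept bins had 3 regions in the richer tissue and 200 bins left out had 2. Genes in the bins are not named, and the tissues were not checked against marker genes, because no annotation of build mm9 was used here.

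As background, 5hmC is made from 5-methylcytosine by the TET enzymes. It is abundant in neurons and less so in most other tissues, and it lies mainly in the bodies of active genes and at enhancers. Mouse autosomes are acrocentric, so the low coordinates of each one lie next to the centromere. Gene-rich and gene-poor stretches alternate at the megabase scale, and a bin of this size usually spans several genes or part of 1 long gene.

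Depth differed between the tissues and, within hippocampus, with dose. In the 1943 bins that held a region in both tissues, the sham pools of hippocampus had 239795 and 95151 counts and its irradiated pools 1501099 and 1318972. The 4 ventricular pools had between 34466 and 91099. A count of 3, the upper limit that a count of 0 allows, was as low as 2.00 CPM in hippocampus (irradiated pool 1) and as high as 87.0 CPM in ventricle (sham pool 2), and such limits cover counting error only. Sham hippocampal pool 1 and irradiated ventricular pool 1 stood apart, since the number of regions stepped from 1287 at 11 counts to 2187 at 12 in the first and from 537 at 8 counts to 991 at 9 in the second. Both are called stepped pools here. The sources used here do not say whether libraries of both tissues were prepared or sequenced together, so tissue and any such batch cannot be told apart.

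The region lists of both tissues were dense and sparse in largely the same bins. The median bin held 9 hippocampal regions (quartiles 5 and 14, highest 36) and 4 ventricular regions (quartiles 2 and 8, highest 24). Across the 2070 bins the region numbers of the tissues correlated at Pearson r = 0.733 (Spearman 0.729), a description over bins of 1 list per tissue with no replicates. Neighbouring bins had similar numbers, with r = 0.420 in hippocampus and 0.386 in ventricle over 1848 neighbouring pairs. The bins with at least 19 hippocampal regions (223, or 10.8% of bins) and those with at least 11 ventricular regions (259, or 12.5%) shared 119 bins, which is 53.4% of the first set and 45.9% of the second. Hippocampus had 1.86 times as many regions as ventricle in the tested bins, yet 163 of 2070 bins (7.87%) listed more ventricular than hippocampal regions.

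**Figure D1:**
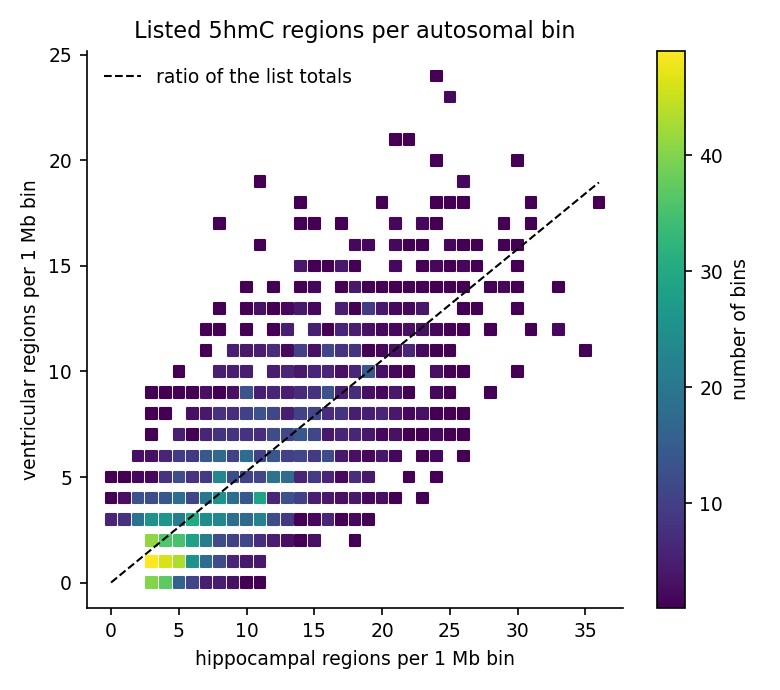
Hippocampal (x axis) against ventricular (y axis) regions per 1 Mb bin for all 2070 bins, with the number of bins at each pair of values as colour and the ratio of the list totals as a dashed line. Bins spread along the line up to 36 hippocampal and 24 ventricular regions, and most hold under 15 hippocampal regions.

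The bins richest in hippocampal regions lay on chromosomes 2 and 4. The bin on chromosome 2 from 59 to 60 Mb held the most, 36 regions, and also 18 ventricular ones. Next came chromosome 4 at 151 to 152 Mb with 35 (11 in ventricle), and 3 bins with 33 each, on chromosome 2 at 167 to 168 Mb and on chromosome 4 at 140 to 141 and 141 to 142 Mb, with 12, 12 and 14 ventricular regions. The bins richest in ventricular regions were on chromosome 11 at 118 to 119 Mb (24 in each tissue), chromosome 4 at 138 to 139 Mb and chromosome 7 at 52 to 53 Mb (23 in ventricle and 25 in hippocampus in both). After them came chromosome 10 at 79 to 80 Mb (21 and 22) and chromosome 17 at 86 to 87 Mb (21 in each tissue). All 10 of these bins were thus well filled in both lists.

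The bins that differed most in their share of the tissue's regions each held a small part of either list. On chromosome 19 at 56 to 57 Mb, hippocampus listed 23 regions, 0.108% of its regions, and ventricle 4, 0.0357% of its regions. On chromosome 2 at 179 to 180 Mb the numbers were 26 and 6, on chromosome 7 at 73 to 74 Mb 24 and 5, and on chromosome 4 at 119 to 120 Mb 18 and 2. In the other direction, chromosome 9 at 102 to 103 Mb held 11 hippocampal and 19 ventricular regions, 0.0517% and 0.170% of the lists. Chromosome 16 at 24 to 25 Mb held 8 and 17, chromosome 5 at 113 to 114 Mb 14 and 18, and chromosome 9 at 68 to 69 Mb 11 and 16. These are features of 2 lists, each made once, so they carry no spread between pools.

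In 127 bins only 1 tissue had listed regions. Ventricle listed none in 119 bins, spread over all 19 autosomes, in which hippocampus had a median of 4 regions. The fullest of these was chromosome 4 at 109 to 110 Mb with 11 hippocampal regions, holding 182 and 29 counts at 0 Gy and 586 and 529 at 1 Gy. Chromosome 1 at 177 to 178 Mb had 10, and bins on chromosome 5 (5 to 6 Mb), chromosome 7 (54 to 55 Mb) and chromosome 15 (47 to 48 Mb) had 9 each. Hippocampus listed none in 8 bins, in which ventricle had 3 to 5 regions. The fullest was chromosome 8 at 54 to 55 Mb, with 13 and 9 ventricular counts at 0 Gy and 55 and 35 at 1 Gy. Reads outside the listed regions were not tabulated, so such a bin has no measured count in the other tissue, and it was not tested.

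Summed counts differed between the tissues in a small set of bins. Counts were summed per bin and pool and scaled by TMM (trimmed mean of M-values), and edgeR's quasi-likelihood test compared the mean of the hippocampal groups with that of the ventricular groups at a false discovery rate (FDR) of 0.05. Of 1943 bins, 44 (2.26%) passed, 23 higher in hippocampus (1.18%) and 21 lower in it (1.08%). The smallest FDR was 0.0282. An unadjusted p under 0.05 was found in 23.6% of bins. All 4 hippocampal pools lay above all 4 ventricular pools in 196 bins (10.1%) and below them in 124 (6.38%). The tissues did not overlap in all 21 lower bins and in 22 of the 23 higher bins, the exception being chromosome 17 at 8 to 9 Mb. The higher bins lay on 12 chromosomes and the lower bins on 15, and no 2 of the 44 were neighbours. Over 1675 neighbouring pairs of tested bins the log2 differences correlated at r = -0.0321.

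Bins were kept for having 3 regions in either tissue, so a called bin could have a short list in the tissue where it is low, which favours that direction.. Of the 23 higher bins 19 had 3 regions in both tissues, and of the 21 lower bins 18, against 75.8% of all tested bins. With 3 regions required in both tissues edgeR called 22 higher and 19 lower bins, which included 19 and 18 of those called before.

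Of the bins higher in hippocampus, the 8 with the largest fitted difference and no overlap are described. On chromosome 17 at 74 to 75 Mb, 11 hippocampal regions gave 422 and 585 CPM (TMM-scaled, as in all bins below) at 0 Gy and 512 and 445 CPM at 1 Gy. It was kept through hippocampus alone, since its single ventricular region is under the minimum of 3. That region held 0 counts in both sham pools and 14 and 4 counts (169 and 44.5 CPM) at 1 Gy. The mean was 491 CPM ± 73.3 in hippocampus and 53.4 CPM ± 79.9 in ventricle (SD, n = 4 pools each), a ratio of 9.20. The fitted difference is not given there, nor on chromosome 3 at 86 to 87 Mb, because both sham ventricular pools were at 0 and its size depends on a small added count.

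The bin on chromosome 3 at 86 to 87 Mb had 7 hippocampal and 2 ventricular regions, so it too was kept through hippocampus alone. Its pools held 322 and 358 CPM at 0 Gy and 444 and 343 CPM at 1 Gy in hippocampus, and 0 at 0 Gy and 278 and 145 CPM at 1 Gy in ventricle. Means were 367 CPM ± 53.9 and 106 CPM ± 133.5 (SD, n = 4), so here the highest ventricular pool came close to the lowest hippocampal one.

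On chromosome 4 at 63 to 64 Mb there were 13 hippocampal and 3 ventricular regions. Hippocampal pools held 500 and 888 CPM at 0 Gy and 727 and 659 CPM at 1 Gy, ventricular pools 30.5 and 0 CPM at 0 Gy and 302 and 66.7 CPM at 1 Gy. The log2 difference was 3.52 (SE 0.67, edgeR FDR 0.0284). Within the 0 Gy pools alone it was 5.07, and within the 1 Gy pools alone 1.92. All hippocampal pools were above all ventricular ones, and the ventricular pools spread widely. With 1 pool left out the difference ran from 3.15 to 6.63, the highest without sham ventricular pool 1, which leaves the 0 Gy ventricular group at 0 and a fitted size that depends on a small added count.

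On chromosome 7 at 85 to 86 Mb, 12 hippocampal and 3 ventricular regions gave 567 CPM ± 84.0 against 137 CPM ± 123 (SD, n = 4), a log2 difference of 2.72 (SE 0.50, edgeR FDR 0.0284). The sham ventricular pools stood at 30.5 and 29.9 CPM (2 and 1 counts) and the irradiated ones at 254 and 233 CPM (21 and 21 counts). The ventricular values thus fell into a low sham and a high irradiated pair, but the sham pair rests on 2 and 1 counts. The hippocampal pools, at 666 and 466 CPM (0 Gy) and 591 and 546 CPM (1 Gy), did not separate by dose. The dose by tissue interaction did not pass here (edgeR FDR 0.555).

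The bin on chromosome 19 at 56 to 57 Mb, with 23 and 4 regions, held 821 and 1332 CPM (0 Gy) and 1348 and 1409 CPM (1 Gy) in hippocampus. Ventricular pools held 107 and 210 CPM at 0 Gy and 604 and 178 CPM at 1 Gy, and the log2 difference was 2.34 (SE 0.43, edgeR FDR 0.0284). The highest ventricular pool thus stayed below the lowest hippocampal pool. The remaining 3 bins of this set were on chromosome 6 at 126 to 127 Mb (10 and 2 regions, kept through hippocampus alone, log2 difference 2.27) and on chromosome 12 at 118 to 119 Mb (18 and 4 regions, 2.27) and 111 to 112 Mb (18 and 4 regions, 2.20). Their hippocampal means were 491, 941 and 982 CPM and their ventricular means 106, 226 and 253 CPM. The last of these ran from 1.82 to 6.54 with 1 pool left out, again with the highest without sham ventricular pool 1, where the remaining 0 Gy ventricular pool is at 0. The log2 differences of all 8 bins average over dose, and each was smaller within the 1 Gy pools alone than within the 0 Gy pools alone. Within the 1 Gy pools they ran from 0.90 (chromosome 3 at 86 to 87 Mb) to 2.175 (chromosome 17 at 74 to 75 Mb). Hippocampus had more listed regions than ventricle in all 8 bins and also in 87.1% of all tested bins.

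Of the bins lower in hippocampus, those with the largest difference rested on few regions. The 3 with the largest difference, on chromosomes 8, 14 and 6, had under 3 hippocampal regions, were kept through ventricle alone and are not tested where 3 regions are required in both tissues. On chromosome 8 at 38 to 39 Mb, 1 hippocampal region gave 46.5 and 10.8 CPM at 0 Gy and 26.1 and 24.0 CPM at 1 Gy. Its 3 ventricular regions gave 549 and 2125 CPM at 0 Gy and 109 and 445 CPM at 1 Gy, and 1 of them held 69.2% of the ventricular counts. The log2 difference was -4.39 (SE 0.70, edgeR FDR 0.0282), and sham ventricular pool 2 was far above the other 3 ventricular pools.

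On chromosome 14 at 17 to 18 Mb, 1 hippocampal and 5 ventricular regions gave 23.2 CPM ± 18.4 against 534 CPM ± 290 (SD, n = 4), a log2 difference of -4.39 (SE 0.69, edgeR FDR 0.0282). The ventricular pools held 931 and 569 CPM at 0 Gy and 314 and 322 CPM at 1 Gy, and the highest hippocampal pool was at 50.4 CPM. On chromosome 6 at 122 to 123 Mb the region numbers were 2 and 6 and the means 61.9 CPM ± 41.6 and 518 CPM ± 88.3 (SD, n = 4), a log2 difference of -2.99.

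The bin with the smallest p of all was on chromosome 16 at 24 to 25 Mb, with 8 hippocampal and 17 ventricular regions. Hippocampal pools held 508 and 195 CPM at 0 Gy and 400 and 378 CPM at 1 Gy, ventricular pools 2197 and 2035 CPM at 0 Gy and 1413 and 1378 CPM at 1 Gy. The log2 difference was -2.19 (SE 0.31, unadjusted p = 2.46e-05, edgeR FDR 0.0282). No region carried the bin here, as the largest held 18.4% of its counts in hippocampus and 10.2% in ventricle.

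The other 4 lower bins lay on chromosome 16 at 42 to 43 Mb (4 and 8 regions, log2 difference -2.61), chromosome 4 at 94 to 95 Mb (3 and 8, -2.40), chromosome 7 at 99 to 100 Mb (6 and 8, -2.01) and chromosome 18 at 67 to 68 Mb (7 and 12, -1.91). The hippocampal pools on chromosome 4 were close together, 132 and 130 CPM (0 Gy) and 134 and 120 CPM (1 Gy), while ventricular pools held 961 and 1407 CPM at 0 Gy and 399 and 389 CPM at 1 Gy. Across the 16 bins described the edgeR FDR was between 0.0282 and 0.0493. They were picked for having no overlap, so their common direction in all pools is not a result.

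**Figure D2:**
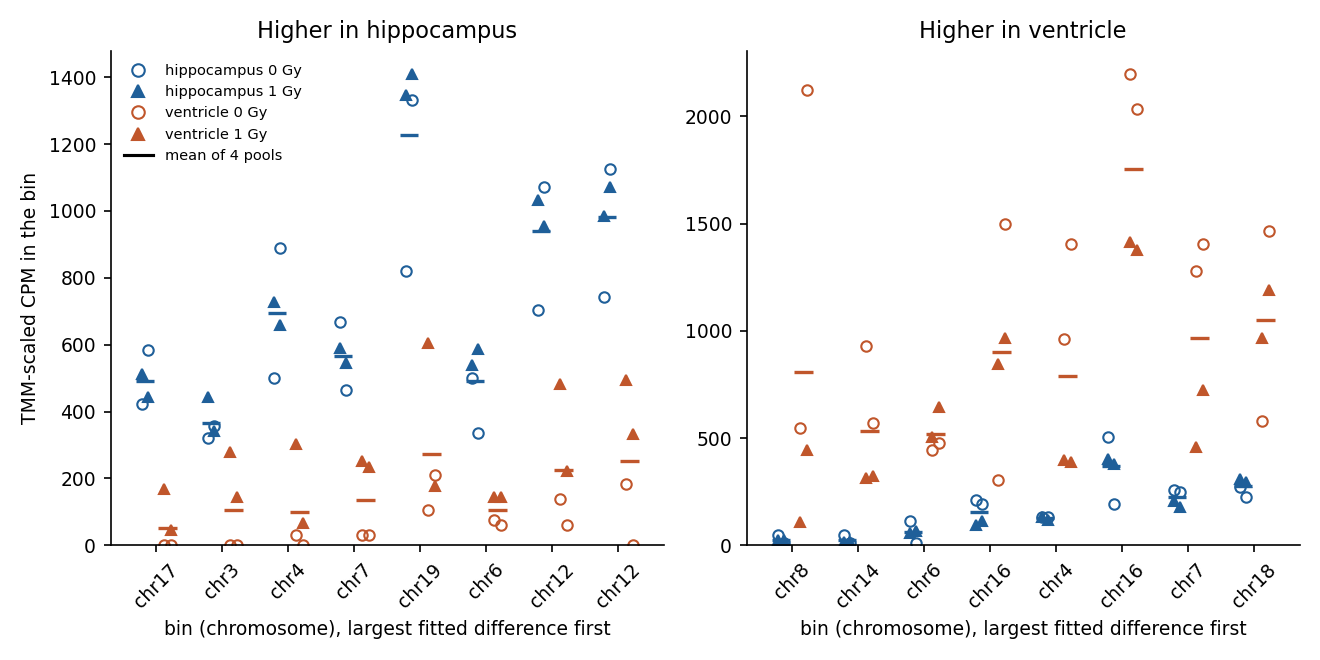
TMM-scaled CPM (y axis) of each pool in the 8 bins with the largest fitted difference in each direction (x axis, by chromosome), hippocampus in blue and ventricle in orange, sham as open circles, irradiated as triangles, means of 4 pools as bars. In the left panel ventricular pools reach 0 in 4 of 8 bins, and in the right panel the ventricular pools of the chromosome 8 bin spread from 109 to 2125 CPM.

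The calls were lost without a hippocampal pool. In the 16 bins described, leaving out 1 hippocampal pool gave 64 values at an FDR between 0.0366 and 0.361 in edgeR. These log2 differences were 0.877 to 1.45 times those of all pools. All kept their direction, which follows from the choice of bins without overlap and is not a result. Without both stepped pools these differences were 0.916 to 1.47 times those of all pools, at an FDR between 0.0948 and 0.142. With sham hippocampal pool 1 left out 1 bin passed in edgeR, that on chromosome 16 at 24 to 25 Mb, and with sham pool 2, irradiated pool 1 or irradiated pool 2 left out 0 passed, although 220 to 339 bins still had an unadjusted p under 0.05. Without sham ventricular pool 1 the test gave 123 higher and 69 lower bins, without sham ventricular pool 2 87 and 39, without irradiated ventricular pool 1 102 and 52, and without irradiated ventricular pool 2 15 and 10. Without both stepped pools 0 passed (512 with an unadjusted p under 0.05). DESeq2 called 232 higher and 183 lower bins, which included all 44. Within the 0 Gy pools alone edgeR called 1 bin, that on chromosome 8 at 38 to 39 Mb (log2 difference -5.29, SE 0.86, FDR 0.00237), and within the 1 Gy pools alone 0 (245 and 398 with an unadjusted p under 0.05).

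The called differences followed the lists. In all 23 higher bins the bin's share of the listed length was larger in hippocampus, and in all 21 lower bins it was larger in ventricle. The higher bins had a median of 18 hippocampal and 4 ventricular regions and the lower bins 7 and 11, against 10 and 5 over all tested bins. Across the 1842 tested bins with counts in each of the 4 groups, the log2 difference of summed counts correlated at r = 0.862 with the log2 ratio of length shares. Over all 1943 tested bins r was 0.753. The sums hold only reads in the listed regions, so the bin sums and the listed lengths are not independent measurements. The lists also appear to have been drawn up from enriched reads of this series, though how is not given in full.

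Once divided by the listed length, no bin passed the test between the tissues. With the length of the bin's regions in each tissue as an offset, 0 of 1943 bins (0%) passed in edgeR and the smallest FDR was 0.999. An unadjusted p under 0.05 was found in 55 bins (2.83%). That number depended on the pools used. It was larger without any 1 ventricular pool, without sham hippocampal pool 1 and without both stepped pools. It was smaller without sham hippocampal pool 2 or either irradiated hippocampal pool. The lack of calls thus does not show that the tissues were equal per covered length. All hippocampal pools lay above all ventricular pools in 1 bin (0.0515%; chromosome 2 at 28 to 29 Mb, singled out after its value was seen) and below them in 6 (0.309%). The SD of the log2 difference over the 1842 bins was 0.99 for summed counts and 0.50 per covered length, and the correlation with the ratio of length shares was 0.029 per covered length. Without sham ventricular pool 1, 2 bins passed as lower in hippocampus, chromosome 10 at 37 to 38 Mb (log2 difference -2.31) and chromosome 6 at 73 to 74 Mb (-2.34), each at an FDR of 0.0230 in edgeR. In the fit of all pools these differences were -1.88 in both bins, and without sham ventricular pool 2, which lay far above the others there, they were -0.82 (FDR 0.630) and -0.60 (FDR 0.730).

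The 44 bins called on their sums had smaller differences per covered length. Relative density is used here for a pool's share of counts in a bin over the bin's share of the tissue's listed length, so that 1 is the average of the list. The higher bins had a median log2 ratio of mean CPM of 1.82 and of mean relative density of 0.53, and the lower bins of -1.75 and -0.31. Over all tested bins these medians were 0.09 and 0.03. These bins were chosen on the same counts, so the medians describe them and test nothing. On chromosome 16 at 24 to 25 Mb the relative density was 0.958 ± 0.375 in hippocampus and 1.19 ± 0.270 in ventricle (SD, n = 4). The fitted edgeR log2 difference there was -0.27 per covered length and -2.19 for the sums. On chromosome 4 at 63 to 64 Mb it was 1.04 ± 0.204 and 0.345 ± 0.484 (SD, n = 4), and the hippocampal pools (0.812 to 1.30) overlapped irradiated ventricular pool 1 (1.06).

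**Figure D3:**
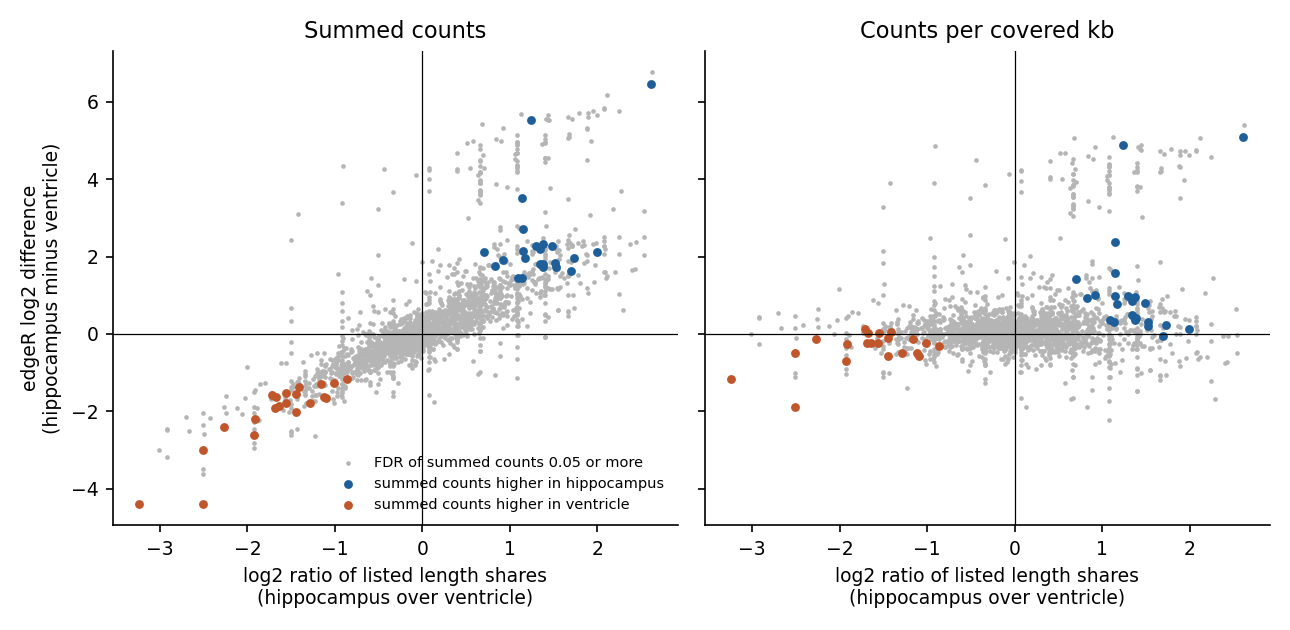
Fitted edgeR log2 difference between the tissues (y axis) against the log2 ratio of the bin's shares of listed length (x axis) for 1943 tested bins, as summed counts on the left and per covered kb on the right, with the 23 higher bins in blue and the 21 lower bins in orange. Over the 1842 bins with counts in each group, the cloud slopes on the left (r = 0.862) and is flat on the right (0.029). Over all 1943 bins r was 0.753 and 0.228. Among the points far above or below the cloud are 101 bins with a dose group at 0, whose fitted size depends on a small added count.

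Of the bins with the smallest p per covered length, the 3 higher in ventricle were led by sham ventricular pool 2. They were chromosome 10 at 37 to 38 Mb, chromosome 6 at 73 to 74 Mb and chromosome 2 at 66 to 67 Mb. On chromosome 6 the relative density in ventricle was 1.59 and 17.1 at 0 Gy and 1.46 and 1.90 at 1 Gy, and 0.918 to 1.24 in hippocampal pools. Sham ventricular pool 2 also stood at 10.5 on chromosome 10 and at 14.4 on chromosome 2, where the other 3 ventricular pools were between 1.32 and 1.43 and between 1.41 and 2.02. On chromosome 10, 1 of 3 ventricular regions held 83.7% of the ventricular counts, and on chromosome 6, 1 of 4 held 84.75%. The bin on chromosome 2 had 4 hippocampal regions and 1 ventricular region, so it was kept through hippocampus alone.

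In the direction of hippocampus the smallest p belonged to chromosome 3 at 127 to 128 Mb, the first megabases of chromosome 4 and the bin on chromosome 4 at 63 to 64 Mb described above. On chromosome 3, with 4 regions in each tissue, both sham ventricular pools were at 0 counts and the irradiated ones at 35 and 38, so no size is given. On chromosome 4 at 3 to 4 Mb, next to the centromere, the relative density in hippocampus was 1.76 and 2.60 at 0 Gy and 7.84 and 7.08 at 1 Gy, against 1.26, 2.70, 1.44 and 1.33 in ventricle. A single region held 94.7% of the hippocampal counts of that bin, and with regions over 10 times the median left out the log2 difference went from 1.30 to -1.43. None of these 6 bins passed per covered length in edgeR with all pools.

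No chromosome's share of counts passed after adjustment, though 4 of 19 did not overlap between the tissues. Chromosome 2 took 8.22% and 8.51% of hippocampal counts at 0 Gy and 8.08% and 7.99% at 1 Gy. In ventricle it took 6.71% and 7.21% at 0 Gy and 7.03% and 6.92% at 1 Gy. The difference was 1.23 percentage points (two-sided exact permutation p = 0.0286, the smallest that 4 pools against 4 can give, adjusted p over 19 chromosomes 0.136). With that floor a chromosome could pass only if most of the 19 also had small p-values. That none passed therefore says little about the size of the differences. Its share of listed length was 8.17% in hippocampus and 7.02% in ventricle, so the count shares stood at 1.00 and 0.993 times the length shares.

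Chromosomes 9, 7 and 15 had lower shares of counts in hippocampus without overlap, each with an exact permutation p of 0.0286 and an adjusted p of 0.136 in tests of 4 pools against 4. Chromosome 9 took 5.39% ± 0.116 in hippocampus and 6.05% ± 0.292 in ventricle (SD, n = 4), against 5.41% and 6.15% of the listed length. Chromosome 7 took 5.62% ± 0.122 and 6.04% ± 0.162 (SD, n = 4), against 5.69% and 6.03% of the listed length. Per ventricular region, hippocampus listed 2.22 regions on chromosome 2 and 1.65 on chromosome 9, the highest and the lowest of the 19 autosomes. With the high-count regions kept, the difference of chromosome 2 turned to -1.62 percentage points. There, 2 such regions held 2.63% and 8.78% of a hippocampal pool's counts at 0 Gy and 14.6% and 12.6% at 1 Gy. In ventricle 3 such regions held 13.5% and 20.6% at 0 Gy and 3.53% and 12.1% at 1 Gy, so the pools of both tissues overlapped widely.

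**Figure D4:**
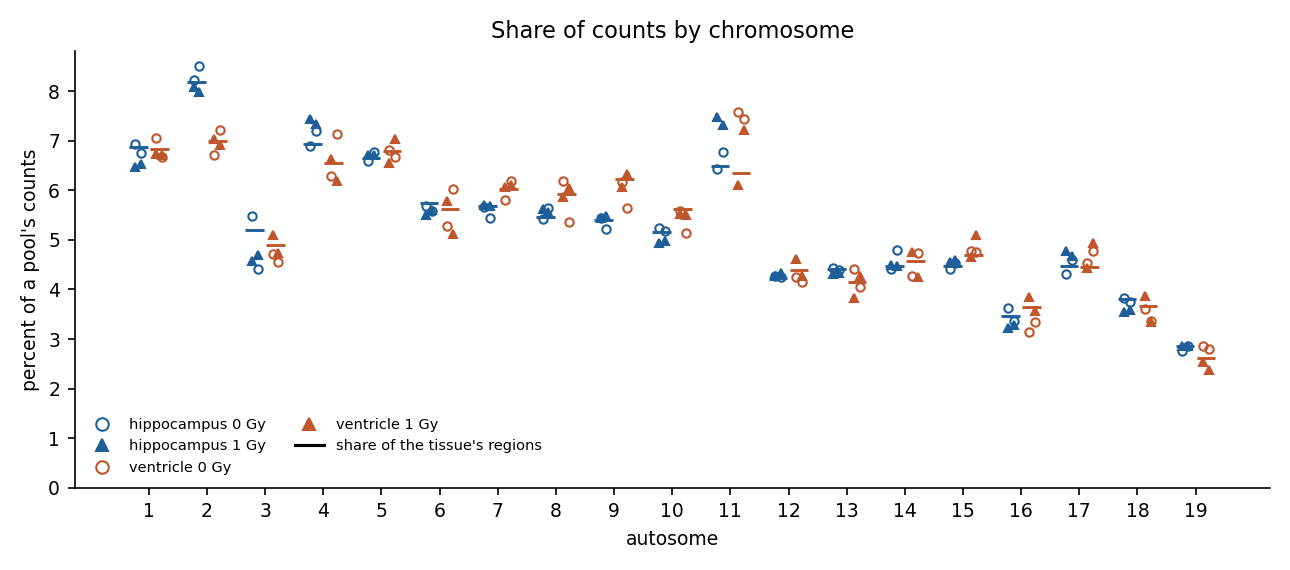
Percent of a pool's counts on each autosome (points, hippocampus in blue, ventricle in orange, sham open, irradiated filled) with the percent of the tissue's regions there as a bar. On chromosome 2 the hippocampal pools (7.99% to 8.51%) lie above the ventricular ones (6.71% to 7.21%), and the points of each tissue sit near its bar.

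No class of position along the chromosome passed between the tissues. The last 10 Mb before the last listed region of each autosome held 11.9% ± 0.753 of counts in hippocampus and 12.4% ± 0.464 in ventricle (SD, n = 4), and the first 10 Mb 6.89% ± 0.0739 and 7.09% ± 0.675. The differences were -0.42 and -0.20 percentage points (exact permutation p = 0.486 and 0.657, adjusted p over 3 classes 0.657 for each). In the distal bins both tissues had more regions per bin, 13.6 in hippocampus and 7.71 in ventricle, than in the interior (10.1 and 5.28) and the centromere-proximal bins (8.67 and 4.33). Of the 23 bins higher in hippocampus 6 lay in the distal stretches, and of the 21 lower bins 1, against 8.90% of all tested bins; these counts were not tested.

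Counts were spread over more bins in hippocampus on average, but the pools overlapped. With each pool thinned to 34466 counts, the smallest number of bins that held 50% of a pool's counts was 29.1% and 22.8% of tested bins (0 Gy) and 22.6% and 22.7% (1 Gy) in hippocampus. In ventricle it was 19.9% and 16.7% at 0 Gy and 24.4% and 19.7% at 1 Gy. The means were 24.3% ± 3.22 and 20.2% ± 3.18 (SD, n = 4, two-sided exact permutation p = 0.114). Thinning made the depths equal but not the region lists, which differed in the same direction. In the lists, 50% of the regions lay in 28.02% of the kept bins in hippocampus and in 24.15% in ventricle. The most even pool of each tissue was a stepped pool, sham hippocampal pool 1 and irradiated ventricular pool 1; the part of the step in this was not tested.

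Pools of a tissue ranked the bins more alike by summed counts than by relative density. By summed counts the pairs within ventricle lay in the range of the pairs between tissues, and those within hippocampus above it. Across 1943 bins the Spearman correlation of summed counts was between 0.785 and 0.988 over the 6 pairs within hippocampus, between 0.602 and 0.647 within ventricle, and between 0.514 and 0.677 over the 16 pairs between tissues. All pools of a tissue share 1 region list, and the lists of the tissues are dense in similar bins, so these values describe the lists as well as the reads. By relative density, irradiated hippocampal pools 1 and 2 correlated at 0.865, and each correlated with sham pool 2 at 0.441 and 0.443. Sham hippocampal pool 1 correlated with the other 3 at -0.641, -0.508 and -0.516. In ventricle, irradiated pool 1 correlated with the others at -0.420, -0.189 and -0.489, and the remaining pairs were at 0.0841, -0.0312 and 0.145. The negative values within a tissue all include a stepped pool, except that of sham pool 1 with irradiated pool 2 in ventricle, and the part of the step in them was not tested.

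**Figure D5:**
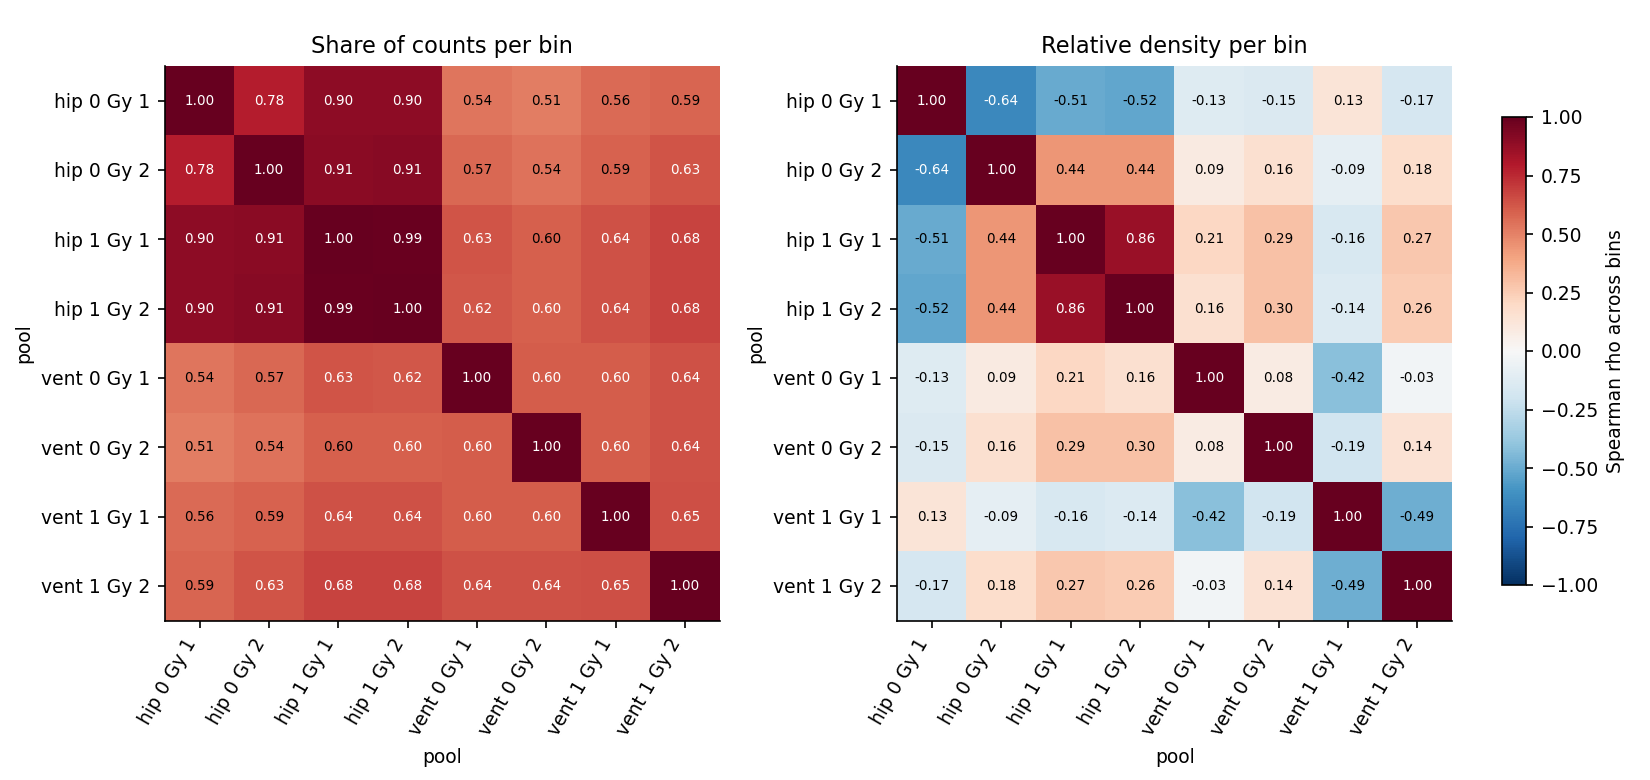
Spearman correlation across 1943 bins between the 8 pools (both axes), by share of counts on the left and by relative density on the right. On the left all pairs are positive and the 4 hippocampal pools form a block from 0.785 to 0.988, while on the right sham hippocampal pool 1 and irradiated ventricular pool 1 are negative against the other pools of their tissue.

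Whether the tissue difference depended on dose was tested as well. The dose by tissue interaction of summed counts passed in 0 of 1943 bins (0%) in edgeR, with 149 (7.67%) at an unadjusted p under 0.05 and a smallest FDR of 0.555, whereas DESeq2 called 35 (15 positive and 20 negative). The 3 bins with the smallest p each had a ventricular dose group at 0. On chromosome 1 at 185 to 186 Mb the ventricular pools held 22 and 9 counts at 0 Gy and 0 in both at 1 Gy. That bin listed 7 hippocampal regions and 1 ventricular region, so it was kept through hippocampus alone and its ventricular counts come from 1 region. On chromosome 17 at 42 to 43 Mb they held 0 in both at 0 Gy and 23 and 32 at 1 Gy, and the third was the bin on chromosome 3 given above. Sizes are not given for them, because they depend on a small added count.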

How the data were processed

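Per the labels, DNA of left ventricle and hippocampus was pooled from several mice, enriched for 5hmC and sequenced. The deposited values are raw read counts per region of 1 merged list per tissue. CASAVA 1.8.2, Bowtie 1.0.0, DESeq2 and build mm9 are named in the submitters' processing notes without a role. The sources used here do not give the peak caller, merging rule, duplicate handling or input. Pools were grouped by title. Whether pools are of separate mice is not fully given, so p-values measure the spread between pools.

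Counts were summed in 1 Mb bins and fitted with edgeR 4.0.16 (R 4.3.3), TMM scaling, 1 mean per tissue and dose, no further count filter, in bins with a region in both tissues. The counts per covered kb used the listed length as offset. The SE given with an edgeR result is the absolute log2 difference divided by the square root of the test's F value. The script was tested on simulated data. Shares were compared by exact permutation (SciPy 1.17.1), adjusted by Benjamini-Hochberg. Depth per pool, and the level that a count of 0 allows, stand with the results.

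Bins described are those past the FDR without overlap (8 per direction by fitted difference), 3 per direction by p per covered kb, 5 per tissue by region number, 5 per direction by difference in region share, 3 chromosomes and 3 interaction bins by p. Chromosome 15 was described after its values were seen, as were the bins listed in 1 tissue only. The members and rules were chosen with earlier results of these data known. Alternatives were DESeq2 1.42.0, other scalings, bins and filters, the replicate number as a block and each pool left out. Removal of the largest region of each bin, and of both stepped pools, was chosen after seeing the data.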

Additional observations from a re-analysis of the deposited data

Results flagged for a closer look

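In 6 of 46 sets of 4 pools of 1 tissue, 1 pool lay far from the other 3 by Dixon's criterion (gap over range above 0.829), which chance alone meets in about 1 in 20 sets. Sham hippocampal pool 1 was that pool in 4 of them: it was lowest on chromosome 19 at 56 to 57 Mb (821 CPM, others 1332 to 1409), lowest in the distal share of counts (10.8%, others 12.2% to 12.4%), highest in the interior share (82.4%, others 80.7% to 80.8%) and highest in the share of bins that hold 50% of counts (29.1%, others 22.6% to 22.8%). Sham hippocampal pool 2 was lowest in the share of chromosome 9 (5.22%, others 5.43% to 5.47%) and of chromosome 7 (5.44%, others 5.66% to 5.70%).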

How the results depend on the processing

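The 23 higher and 21 lower calls of summed counts in edgeR became 11 and 11 with all regions kept, 72 and 53 at an FDR of 0.1, 232 and 183 with DESeq2, and 143 and 44 with all member bins at 0 where no region is listed. Within 0 Gy pools they were 0 and 1, within 1 Gy pools 0 and 0, without both stepped pools 0 and 0, and with 1 pool left out between 0 and 123 and between 0 and 69. There were 46 higher calls in 500 kb bins and 70 with the largest region of each bin left out. Other scalings, filters and 2 Mb bins stayed within 1.5 times; the cause of the moves was not tested, except that fewer pools or more bins enter by construction. Differences between replicates correlated between -0.0501 and 0.201 over the 6 pairs of groups. Between the tissues at the same dose they correlated at 0.0509 (0 Gy) and -0.0501 (1 Gy). Such values cannot decide whether pools of both tissues came from the same mice, which was not established here. The replicate block gave 21 higher and 16 lower calls of sums, 0 per covered kb and 0 for the interaction. Per covered kb, calls were between 0 and 2 with 1 pool left out. The interaction gave 0 with 1 pool left out, and 15 positive and 20 negative with DESeq2. Signs turned, with the cause not tested, for values that had not passed: per covered kb on chromosome 4 at 3 to 4 Mb (-1.43) and chromosome 6 at 73 to 74 Mb (0.67) with regions over 10 times the median left out, and for both (-0.19 and 0.12) and chromosome 10 at 37 to 38 Mb (4.70) with the largest region left out, and on chromosome 3 at 127 to 128 Mb within 1 Gy pools (-0.0316). In percentage points they turned for chromosome 2 with all regions kept (-1.62), for distal and interior shares with 20 Mb ends (0.0058 and -0.0045) and for the proximal share without sham ventricular pool 2 (0.0965, range with 1 pool left out -0.386 to 0.0965). No chromosome or position class passed with 1 pool left out (0 in each). None could, because the smallest exact permutation p is then 0.0571. The difference in bins that hold 50% of counts was between 2.54 and 5.55 percentage points with 1 pool left out. Of the tested bins 16.2% stood at 0 in sham ventricular pool 2, the shallowest.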

Other observations

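Regions of both tissues thickened towards the distal ends of the autosomes in nearly the same steps. When the span between the first and last listed region of each chromosome was cut into steps of 5%, the step from 90% to 95% held 7.50% of the retained regions in hippocampus and 7.50% in ventricle, and the last step 6.93% and 7.43%. The emptiest step in both, from 10% to 15% of the span, held 3.69% and 3.38%. The first step, next to the centromere, held 4.18% and 4.13%. These are values of 1 list per tissue with no replicates.

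Bins without a ventricular region made up 1.83% of the bins of chromosome 9 and 8.40% of those of chromosome 3, the lowest and the highest of the 19 autosomes. Ventricular regions per bin averaged 6.39 on chromosome 9 and 4.19 on chromosome 3, the lowest of the 19, with 6.46 on chromosome 11, the highest.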
